A study of Mus musculus with 9 samples.

Results

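Of the 35557 rows of the deposited expression table, 12147 had no gene symbol in the platform annotation, and these rows are described here. Each row is a transcript cluster, a group of short probes on an Affymetrix Mouse Gene 1.0 ST array whose brightness was summarised to 1 value per array. Of the other rows, 21789 had 1 symbol and 1621 had several. The study compared 3 kinds of C57BL/6 mouse cells: cardiac fibroblasts from adults, fibroblasts of the same kind labelled as dedifferentiated in a study of protein-based dedifferentiation, and ES cells, the pluripotent cells of the early embryo grown in culture. Each kind had 3 samples, 1 array each, 9 arrays in all. Neither the animals' age, nor the proteins used, nor the ES cell line was stated in the labels. Whether samples of a kind came from separate animals or cultures was not stated either, so p-values speak only to differences among the arrays at hand, whose spread could be technical, and 3 arrays per kind limit the precision.

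A transcript cluster can lack a symbol for several reasons. Arrays of this family carry control probe sets beside the main design, some of them built from introns or exons of common genes or from sequence with no match in the genome, and they also carry clusters for spliced expressed sequence tags, small RNAs, repeated sequence and predicted transcripts that annotation later dropped. ES cells are known for broad low-level transcription that includes noncoding sequence, and cardiac fibroblasts for making extracellular matrix.

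The annotation used here listed only rows with a symbol and gave neither a category nor a position for the others, so control probe sets could not be separated by category. Row numbers gave a coarser division. The first 6618 rows without a symbol, 10338001 to 10344622, formed 1 unbroken stretch that held no listed row, called the leading run. A further 5438 rows lay between listed rows, in 3840 stretches of which 2882 were a single row. The last 91 rows, 10608634 to 10608724, followed the last listed row and are called the trailing run. No sequence of these rows is printed, because no sequence was used here for any of them.

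The labels were checked against marker genes before the rows were compared. All 10 fibroblast markers were lower, and all 10 ES cell markers higher, in both the dedifferentiated and the ES cells than in the fibroblasts. None of 5 cardiomyocyte markers differed by a call, and their group means lay between 4.01 and 5.95. Of 5 leukocyte markers, 2 were lower and 1, Cd68, higher than in fibroblasts in both other groups, and their summed group means were 32.0 in fibroblasts, 24.1 in dedifferentiated and 25.4 in ES cells. Lyz2, the lysozyme of macrophages, stood at 8.85, 3.20 and 3.34 in that order. Of 5 endothelial markers, 3 were higher in dedifferentiated and 1 in ES cells than in fibroblasts, with summed means of 24.9, 30.4 and 27.4. Xist, the RNA of the inactive X chromosome, stood at 7.31 in fibroblasts against 3.25 in dedifferentiated and 3.15 in ES cells. The Y-linked Eif2s3y stood at 3.55, 8.09 and 7.76, so a sex-linked difference ran alongside both comparisons with fibroblasts. The part of sex, leukocyte RNA and endothelial RNA in the results on rows without a symbol was not tested.

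Rows without a symbol were dimmer than rows with one, and their array medians were higher in dedifferentiated and ES cells than in fibroblasts. Array medians, on the log2 scale of the deposited values, were 3.75 to 3.82 in fibroblasts, between 3.97 and 4 in dedifferentiated cells and 3.97 to 4.05 in ES cells. The 3 fibroblast arrays thus lay below all 6 others. For rows with 1 symbol the medians of all 9 arrays lay between 5.30 and 5.40. Group means under 4 were found in 6721 of the rows without a symbol (55.3%) for fibroblasts, 6103 (50.2%) for dedifferentiated and 6077 (50.0%) for ES cells, against 29.2% to 29.7% of rows with 1 symbol. Bright rows were present too: a mean of 10 or more was reached by 415 rows in fibroblasts, 434 in dedifferentiated and 417 in ES cells. The values carry no detection call, so a dim row cannot be said to be absent. In these bulk samples fewer cells that make an RNA and less of it per cell cannot be told apart.

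The 3 stretches differed in level. Medians of the leading run were 3.61 to 3.71 on fibroblast, 3.88 to 3.91 on dedifferentiated and 3.95 to 4.14 on ES arrays. Medians of the rows lying between were 3.86 to 3.92, 4.05 to 4.11 and 3.90 to 4.03, so here the dedifferentiated arrays were highest, and the lowest ES array fell within the fibroblast range. The trailing run was brighter, at 5.04 to 5.19, 4.83 to 4.93 and 4.57 to 4.73, in the opposite order. The scatter between arrays of a group also differed. The median SD within groups was 0.327 log2 units in the leading run, 0.145 in the rows between and 0.123 in the trailing run, beside 0.125 for rows with 1 symbol. At matched levels the leading run remained the more scattered, with 0.401 against 0.173 for rows between at means of 4 to 6.

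**Figure D1:**
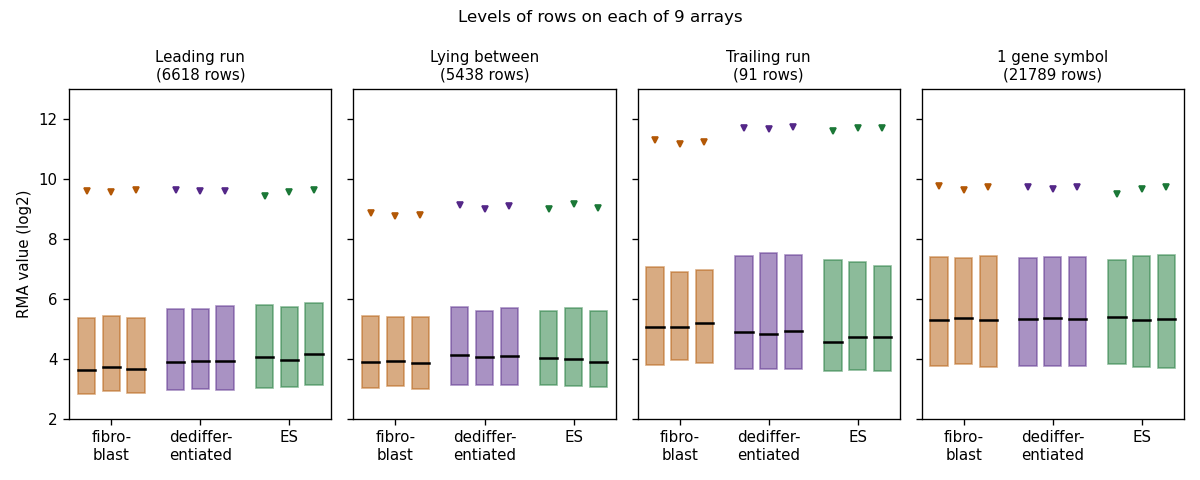
Levels of rows on each array, for the leading run, the rows lying between listed rows, the trailing run and rows with 1 gene symbol. Boxes span the quartiles, black lines are medians, triangles are 95th percentiles and the vertical axis is the RMA value in log2 units; fibroblast medians of the leading run (3.61 to 3.71) lie below those of the ES arrays (3.95 to 4.14).

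The comparison of dedifferentiated cells with fibroblasts asked which rows changed with dedifferentiation. A row was called higher or lower when its limma adjusted p was under 0.05 and its change at least 1 log2 unit in either direction. Of the rows without a symbol, 852 were called higher and 179 lower, or 7.01% and 1.47%, where 8.59% of all rows tested were called higher and 6.58% lower (15.2% in either direction). The share called higher was thus somewhat below that of all rows, and the share called lower was well below it. Rows with 1 symbol were called in near-equal numbers, 1963 higher and 2105 lower. The leading run had 430 rows higher and 60 lower, the rows between had 413 and 109, and the trailing run had 9 and 10. The median change was 0.07 log2 units over rows without a symbol, 0.04 over all rows and 0.01 over rows with 1 symbol. With every array centred on its median over the rows without a symbol, the median over all rows moved by -0.21, that of the rows without a symbol turned to -0.14, and 64.8% in place of 82.6% of the called rows were higher.

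ES cells differed from fibroblasts in a similar balance, in a comparison that shares the fibroblast arrays with the one above. Of the rows without a symbol, 781 were called higher and 223 lower, 6.43% and 1.84%, where 8.16% of all rows tested were called higher and 6.93% lower (15.1% in either direction). The leading run took the larger share here, with 531 rows higher and 95 lower, while the rows between had 243 higher and 117 lower. The trailing run had 7 higher and 11 lower. The median change was 0.10 over rows without a symbol and 0.18 over the leading run, against 0.02 over rows with 1 symbol. Centring on the rows without a symbol moved the median over all rows by -0.24, turned that of the rows without a symbol to -0.14 and left 56.6% in place of 77.8% of the called rows higher.

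Dedifferentiated and ES cells differed in far fewer rows. In this comparison 130 rows without a symbol were called higher in dedifferentiated cells and 69 lower, 1.07% and 0.568%, beside 1.25% and 0.534% of all rows tested (1.78% in either direction). The direction depended on the stretch. In the leading run 18 rows were higher and 62 lower, among the rows between 110 were higher and 7 lower, and in the trailing run 2 were higher. The count of lower rows rose from 69 to 105 without ES replicate 1, and the 112 higher rows outside the leading run became 72 without ES replicate 3. The 7 lower ones there became 12 without ES replicate 1 and 4 without dedifferentiated replicate 3. For 9857 rows without a symbol, or 81.1%, the 95% interval of the difference lay within 1 log2 unit of 0. That share was 71.2% in the leading run, where arrays scattered more, 93.0% in the rows between and 95.7% for rows with 1 symbol. Counted over the 3 comparisons, 1453 rows without a symbol were called in at least 1, or 12.0% of them, beside 18.8% of all rows.

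**Figure D2:**
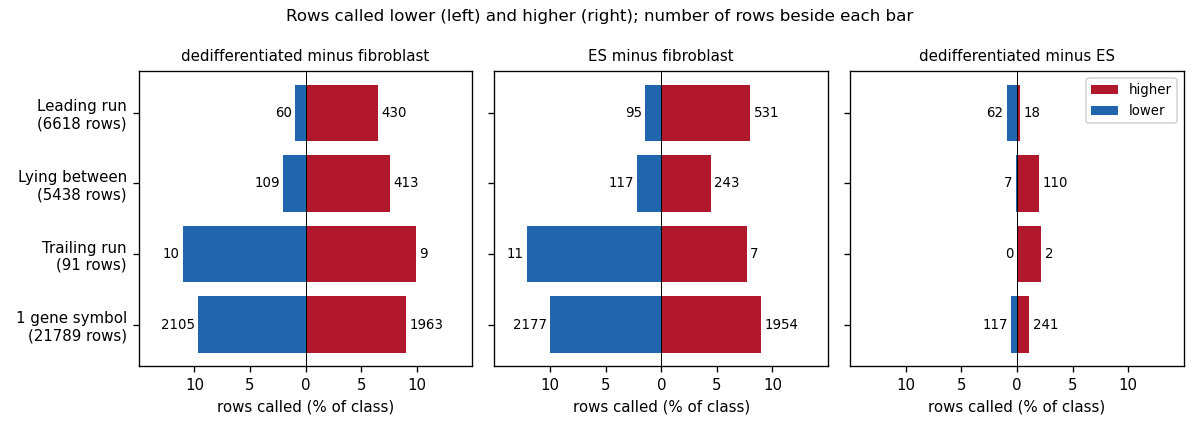
Share of each class of rows called higher (right of 0) or lower (left of 0) in the 3 comparisons, in percent of the class on the horizontal axis, with the number of rows beside each bar. Among rows lying between listed rows 413 were higher and 109 lower in dedifferentiated cells than in fibroblasts, where rows with 1 symbol had 1963 higher and 2105 lower.

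Changes of the leading run were small. None of its rows changed by 4 log2 units or more among the called ones in any of the 3 comparisons, and 46 rose and 2 fell by at least 2 in dedifferentiated cells. Of the rows between, 110 rose and 57 fell by at least 2, and 12 rose and 10 fell by at least 4. At mean levels of 4 to 6, 202 of 1642 leading-run rows were higher (12.3%) and 13 lower (0.792%) in dedifferentiated cells, where 7.90% of all rows at that level were higher and 7.97% lower. In ES cells 275 were higher (16.7%) and 14 lower (0.853%), beside 8.44% and 8.27% of all rows at that level, each against fibroblasts. At mean levels of 8 to 10, 73 of 563 rows were higher (12.97%) and 25 lower (4.44%) in dedifferentiated cells, beside 17.9% and 9.85% of all rows. In ES cells 44 were higher (7.82%) and 48 lower (8.53%), beside 15.1% and 11.3% of all rows. Among the rows lying between, the share called higher in dedifferentiated cells was 6.44% at 4 to 6, 17.0% at 6 to 8 and 21.4% at 8 to 10, beside 7.90%, 16.9% and 17.9% of all rows at those levels. The share called lower was 2.00%, 7.31% and 8.17%, below the 7.97%, 14.3% and 9.85% of all rows. Under 4, which held 2754 of these rows, 4.36% were higher and 0.182% lower, beside 1.74% and 0.664% of all rows. Of the 120 higher rows at this level, 90 belonged to 1 stretch of 134 rows, described below, and made up only 24 distinct sets of values. The larger share of higher rows under 4 thus rests largely on that stretch.

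Among the called rows outside the leading run the largest rise was that of row 10433197. Its values were 5.31, 4.85 and 4.62 in fibroblasts, 12.16, 11.81 and 12.00 in dedifferentiated cells and 11.57, 11.93 and 11.88 in ES cells. The fibroblast arrays lay far below the others, and the dedifferentiated and ES arrays overlapped. It rose by 7.06 log2 units in dedifferentiated cells (134-fold, 95% interval 6.65 to 7.48, adjusted p = 9e-09) and by 6.86 in ES cells (adjusted p = 1e-08). Its neighbours by row number were Olfr161, an olfactory receptor gene, and Zfp263, a zinc finger gene, both of chromosome 16. They changed by 0.01 and 0.74 in dedifferentiated cells and by 0.07 and 1.20 in ES cells. The 1.20 of Zfp263 was a call, but neither neighbour moved by a comparable amount.

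Row 10420780 had the next largest rise in dedifferentiated cells. It stood at 3.06, 3.12 and 4.11 in fibroblasts, at 9.98, 10.20 and 10.35 in dedifferentiated cells and at 9.88, 9.77 and 9.93 in ES cells. The change was 6.75 (95% interval 6.17 to 7.32, adjusted p = 7.9e-08) and 6.43 in ES cells (adjusted p = 1e-07). It lay between Blk, a tyrosine kinase of B cells, and Mtmr9, a myotubularin-related gene, both of chromosome 14, which changed by 0.09 and -0.06. Row 10568731 had the second largest rise in ES cells, by 6.71, from 4.39, 3.77 and 3.52 in fibroblasts to 10.53, 10.70 and 10.58. Its dedifferentiated values of 9.88, 9.67 and 9.41 lay between the other groups, overlapped neither and were 0.95 below the ES mean, short of a call. Its neighbours were the proliferation gene Mki67, which changed by 0.68 in dedifferentiated cells, and the transcription factor gene Ebf3, which changed by -1.84, opposite to the row.

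The largest falls were somewhat smaller than the largest rises. Row 10358339 fell from 9.63, 9.18 and 9.63 in fibroblasts to 2.99, 3.15 and 2.79 in dedifferentiated and 2.98, 2.94 and 2.75 in ES cells, a change of -6.51 (adjusted p = 4.1e-09) and -6.59 (adjusted p = 3.6e-09). Both other groups thus reached the low end of the scale. Between the complement factor H related gene Cfhr3, at -0.58 in dedifferentiated cells, and Cdc73, a subunit of the Paf1 transcription complex, at 0.58, it had no neighbour that moved alike. Row 10487040, between Myef2 and the centrosome gene Cep152, fell from 11.07, 11.18 and 11.35 in fibroblasts to 5.16, 4.95 and 5.12 in dedifferentiated and 4.64, 4.61 and 4.61 in ES cells. The changes were -6.12 (adjusted p = 1e-09) and -6.58 (adjusted p = 5.8e-10). No fibroblast array came near the others, and all 3 dedifferentiated arrays were above the ES arrays, by 0.46 on average.

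Some rows stood apart between dedifferentiated and ES cells. Row 10429564, between a row of the surface antigen gene Ly6i of chromosome 15 and a row that lists Ly6c2 and Ly6c1, was at 10.73, 10.07 and 10.53 in fibroblasts, 6.59, 6.59 and 6.73 in dedifferentiated and 4.09, 4.99 and 5.07 in ES cells. The 3 groups did not overlap, and the dedifferentiated mean exceeded the ES mean by 1.92 (95% interval 1.33 to 2.52, adjusted p = 0.0023). Ly6i differed by 0.03. The row that lists Ly6c2 and Ly6c1 also went down in steps, from 7.24, 6.46 and 6.82 to 5.22, 5.10 and 5.22 and to 4.64, 4.61 and 4.18. It fell by 1.66 in dedifferentiated (adjusted p = 0.00012) and by 2.36 in ES cells (adjusted p = 1.2e-05) against fibroblasts, and its 0.70 between dedifferentiated and ES cells was short of a call. The nearest row with 1 symbol on that side, Ly6a2, differed by 0.02. Row 10608668 of the trailing run went the other way against fibroblasts, from 4.16, 3.96 and 3.44 to 9.27, 8.92 and 9.22 in dedifferentiated and 7.65, 7.46 and 6.92 in ES cells. Here the dedifferentiated arrays were the highest of the 9, 1.79 above ES cells (adjusted p = 0.0018) and 5.28 above fibroblasts.

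Other rows were higher in ES than in dedifferentiated cells. Row 10545168, between the cytokine receptor gene Il23r and the immunoglobulin segment Igkv10-96, was at 3.40, 3.70 and 3.40 in fibroblasts, 4.31, 4.44 and 4.46 in dedifferentiated and 5.88, 6.41 and 6.39 in ES cells, a difference of -1.82 (adjusted p = 0.00031). Its 3 groups did not overlap. Row 10586170, between the small nucleolar RNA Snord16a and Snapc5, a subunit of the complex that starts small nuclear RNA genes, was 1.26 lower in dedifferentiated cells (95% interval -1.86 to -0.66, adjusted p = 0.015), with 5.92, 5.83 and 5.83 against 6.48, 7.37 and 7.51. That call was lost without ES replicate 2, at adjusted p = 0.0561, and without dedifferentiated replicate 3, at adjusted p = 0.0558.

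The leading run held no row of such size. Its largest rise, row 10341870, went from 5.43, 3.42 and 5.37 in fibroblasts to 8.85, 7.70 and 7.94 in dedifferentiated and 7.68, 8.93 and 8.71 in ES cells. The changes were 3.42 (95% interval 2.11 to 4.74, adjusted p = 0.0012) and 3.70 (2.39 to 5.01, adjusted p = 0.00073), with intervals several times wider than those of row 10433197. Row 10341659 rose more evenly, from 3.89, 3.42 and 2.79 to 6.22, 6.06 and 6.08 and to 6.41, 6.80 and 6.78, by 3.30 in ES cells (adjusted p = 5.4e-06). The next largest rise in dedifferentiated cells, row 10341357, changed by 3.19 with values of 8.62, 6.33 and 8.24 against 5.58, 2.87 and 5.16 in fibroblasts. Its call was lost without dedifferentiated replicates 1 or 3 and without fibroblast replicate 2.

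Falls within the leading run were led by row 10343661 in dedifferentiated cells, from 6.20, 5.88 and 6.13 to 4.18, 2.70 and 3.90 (-2.48, adjusted p = 0.00041). Row 10339900 followed at -2.08 (adjusted p = 0.0042). In ES cells row 10339978 fell from 5.78, 6.13 and 5.81 to 4.03, 2.23 and 3.68 (-2.60, adjusted p = 0.0033). Row 10343030 followed at -2.16 and lost its call without any of 4 arrays, ES replicates 1 and 3 and fibroblast replicates 1 and 2. Between dedifferentiated and ES cells, row 10344210 was highest in dedifferentiated cells, at 7.45, 7.10 and 6.83 against 5.45, 5.83 and 5.78 (1.44, adjusted p = 0.0024), and row 10339601 differed by 1.33. Row 10340357 was near 3 on all fibroblast and dedifferentiated arrays and at 4.31, 5.14 and 5.77 in ES cells (-1.93, adjusted p = 0.0053). Row 10344501 differed by -1.89, a call lost without ES replicate 3 and without each of the dedifferentiated arrays.

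The brightest rows that were not called in any of the 3 comparisons were almost level. Row 10452415, between Nudt12 and the ephrin gene Efna5 of chromosome 17, lay between 13.48 and 13.59 on all 9 arrays. Row 10608691 of the trailing run lay between 13.35 and 13.66. Among rows beside mitochondrial genes, 8 of 28 also had means of 10 or more, from 10.2 to 13.33, and none of these 8 was called; their changes ran from -0.52 to 0.004 in dedifferentiated cells and from -0.09 to 0.07 in ES cells. At means of 10 or more, 9.63% of all rows were higher and 3.86% lower in dedifferentiated cells than in fibroblasts. Of the 28 rows 2 were called, both lower in dedifferentiated cells than in fibroblasts, row 10598027 by -1.12 and row 10598041 by -1.88. In that comparison 6.58% of all rows were called lower.

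**Figure D3:**
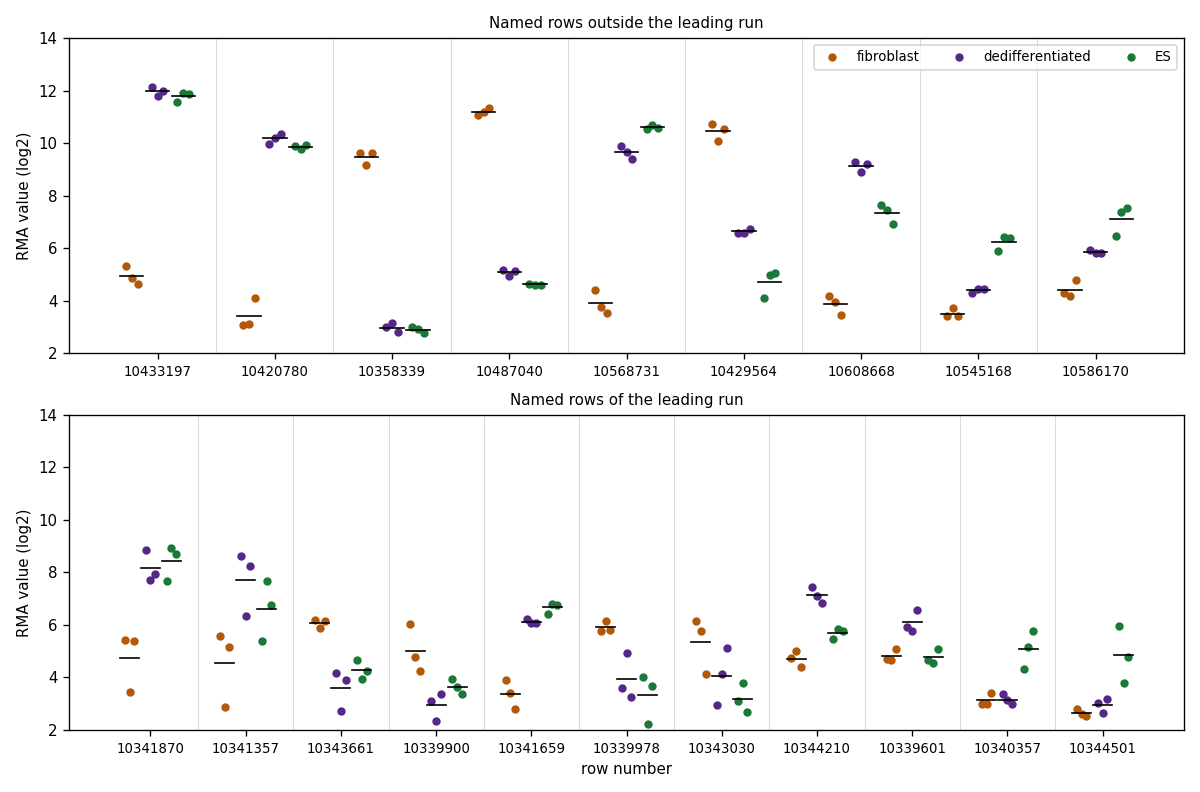
Values of the named rows on each array (points, log2 RMA value on the vertical axis) with group means (lines), outside the leading run above and within it below; the horizontal axis gives row numbers. Outside the leading run row 10433197 goes from 4.62 to 5.31 in fibroblasts to 11.57 or more in the other groups, while points of a group in the leading run lie further apart.

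In some stretches consecutive rows moved together. Of 22 stretches of at least 7 rows lying between listed rows, 6 had more than 50% of their rows called in 1 direction against fibroblasts, and these 6, chosen after their values were seen, held 180 rows. The longest stretch had 134 rows, 10563891 to 10564157, and 55 distinct sets of values, since many of its rows were exact copies of each other on all 9 arrays. It lay between Depdc1a and 22 rows whose annotation lists Snord116l2, Snord116l1 and Gm26504 together, names of a cluster of small nucleolar RNAs and of a noncoding RNA. In dedifferentiated cells 90 of the 134 rows were higher than in fibroblasts (24 distinct sets), and 0 were lower. In ES cells no row of the stretch was called against fibroblasts, though their median difference was 0.61; limma with array weights called 3 of them higher.

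Array medians of the longest stretch were 2.82, 2.69 and 2.79 in fibroblasts, 4.88, 4.27 and 4.68 in dedifferentiated cells and 3.20, 3.71 and 3.13 in ES cells. The groups did not overlap, and the ES arrays lay nearer to the fibroblasts. Large sets of copies carry these medians. With each distinct set counted once they were 2.65, 2.69 and 2.67 in fibroblasts, 4.11, 3.31 and 3.40 in dedifferentiated and 2.85, 2.99 and 2.91 in ES cells. The median difference was 1.76 between dedifferentiated cells and fibroblasts and 1.16 between dedifferentiated and ES cells, where 86 rows were called higher. Over distinct sets these medians were 0.84 and 0.60, and 24 of 55 sets (43.6%) and 20 of 55 (36.4%) were called, under the 50% by which the stretch was picked. The count of 86 became 57 without ES replicate 3 and 56 with array weights. These 86 rows were 78.2% of all rows lying between that were called higher in dedifferentiated than in ES cells. The copies fell into large groups: 33 rows that start with 10563937 shared 1 set of values, with means of 2.78, 5.14 and 3.56 in fibroblasts, dedifferentiated and ES cells, and 23 rows that start with 10564027 shared another, 2.85, 4.61 and 3.45. Only row 10563891 of this stretch reached a mean of 6 in any group, at 6.62, 6.88 and 6.65 in the same order, and it was not called. All called rows of the stretch were dim, with means of 5.14 or less in every group. The 22 following rows that list the small nucleolar RNAs also held copies, with only 7 distinct sets of values. All 22 were higher in dedifferentiated cells (median 3.02) and in ES cells (median 1.89), each against fibroblasts. The difference between dedifferentiated and ES cells there had a median of 1.13, with 19 rows called higher, in 4 distinct sets.

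Outside the longest stretch, 24 rows lying between were called higher in dedifferentiated than in ES cells. This count was unstable: it was 9 without dedifferentiated replicate 1, 13 without dedifferentiated replicate 3 or ES replicate 3, and 57 without dedifferentiated replicate 2. Together with the 2 rows of the trailing run, 12 of 26 such rows lay beside rows that list Nlrp9b, Nlrp4e or Gm10662. The Nlrp genes are known from oocytes and early embryos. Among the 12, rows 10560730 and 10560783 were copies of each other, as were rows 10560740 and 10560787. In these 12, named after their values were seen, group means were 2.98 to 3.98 in fibroblasts, 4.34 to 5.41 in dedifferentiated and 3.17 to 4.16 in ES cells, and the differences from ES cells were 1.02 to 1.27. Their calls against ES cells fell from 12 to 0 without dedifferentiated replicate 1 or 3, to 2 without ES replicate 2, to 3 without ES replicate 3 and to 7 without ES replicate 1. In a stretch of 7 such rows between Igsf23 and the rows listing Nlrp4e, 6 exceeded the fibroblasts in dedifferentiated cells, with array medians of 4.63, 3.85 and 4.98 against 3.78, 3.63 and 3.66, and 3 did with arrays centred on the rows without a symbol. The second dedifferentiated array was level with the ES arrays, at 3.85, 3.76 and 3.85. In that stretch 4 rows were called above ES cells, 0 without dedifferentiated replicate 1 or 3 or ES replicate 2, and 1 without ES replicate 3.

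A stretch of 13 rows, 10383152 to 10383212, fell as a block. It lay between the sulfate transporter gene Slc26a11 and a row of Rnf213, a large ubiquitin ligase gene known to respond to interferon, on chromosome 11. Array medians were 7.50, 7.35 and 7.92 in fibroblasts, 5.58, 5.39 and 5.49 in dedifferentiated and 5.36, 4.95 and 5.37 in ES cells. All 13 rows were lower in dedifferentiated cells (-2.51 to -1.82, median -2.29) and all 13 in ES cells (-2.85 to -2.01, median -2.41), each against fibroblasts and also with any 1 array left out. None differed between dedifferentiated and ES cells by a call. The adjacent row of Rnf213 fell by 2.46 and 2.60 (adjusted p = 1.2e-06 and 8.2e-07), a change as large as that of the block. The next listed row, also of Rnf213, is not described here. Slc26a11 changed by -0.45 and -0.18.

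A stretch of 7 rows, 10461148 to 10461160, rose as a block. It lay between Chrm1, a muscarinic receptor gene, and the row of Snord22, a small nucleolar RNA. Array medians were 6.91, 6.40 and 6.85 in fibroblasts, 8.82, 8.50 and 8.70 in dedifferentiated and 8.37, 8.52 and 8.49 in ES cells. All 7 rows were higher in dedifferentiated cells (1.46 to 2.20) and in ES cells (1.11 to 2.16) than in fibroblasts, and remained so with any 1 array left out. Snord22 rose by 1.77 and 1.53 (adjusted p = 8.9e-06 and 2.2e-05), while Chrm1 changed by 0.14 in both. The block and the small nucleolar RNA after it thus had changes of like size.

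**Figure D4:**
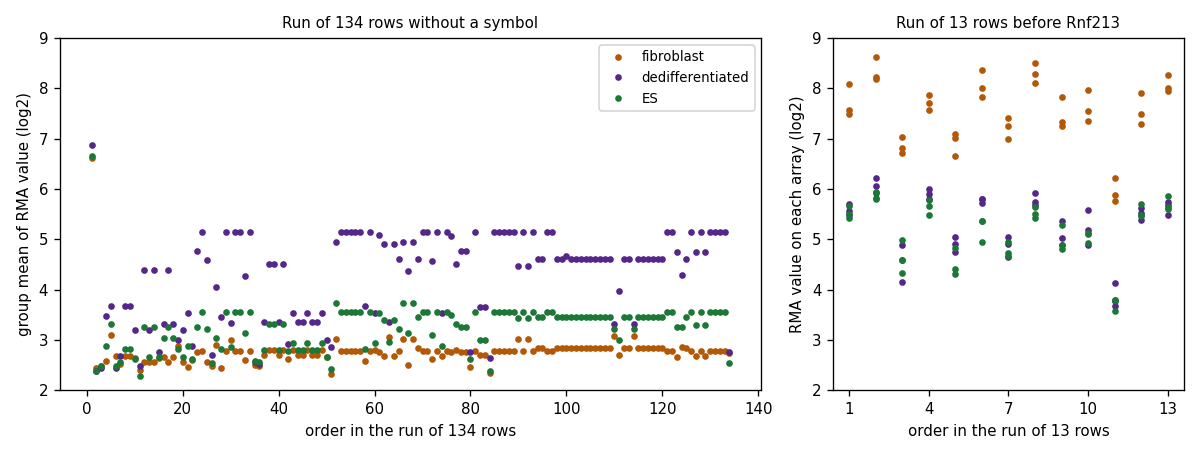
Left, group means (log2 RMA value) of the 134 rows of the longest stretch in row order; right, values on each array of the 13 rows before Rnf213. Horizontal axes give the order of rows. In the longest stretch dedifferentiated means reach 5.14 where fibroblast means are 2.78, and in the 13 rows all fibroblast points lie above those of the other groups in the same row.

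The other 2 stretches moved less evenly. In 10 rows between Slc46a2 and the major urinary protein gene Mup5, 7 exceeded the fibroblasts in dedifferentiated cells, with array medians of 4.36, 3.94 and 4.47 against 3.12, 3.10 and 2.91, and 4 did with arrays centred on the rows without a symbol. The ES medians of 3.41, 3.63 and 3.48 lay between, and 1 row was called against them, a call lost without any of 6 arrays. In 9 rows before the tRNA methyltransferase gene Alkbh8, 6 were higher in dedifferentiated cells (median change 1.57). Array medians there were 8.44, 6.51 and 7.54 in fibroblasts, 9.30, 8.63 and 9.49 in dedifferentiated cells and 7.57, 9.04 and 8.50 in ES cells, so the spread within each of the fibroblast and ES groups exceeded 1 log2 unit. The count of 6 became 0 without dedifferentiated replicate 3, 1 without fibroblast replicate 2 and 2 without dedifferentiated replicate 1 or fibroblast replicate 3. Among the stretches with few calls, 22 rows between the phosphatase gene Ptprf and the mitotic gene Cdc20 had a median change of 0.75 in ES cells and 4 called higher, and 0 when arrays were centred on the rows without a symbol.

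Copies of 1 set of values were not limited to neighbours. In all, 313 rows without a symbol belonged to 79 sets of identical rows, so the 12147 rows held 11913 distinct sets of values. None of these 79 sets lay in the leading run or held a row with a symbol. Rows with symbols had copies among themselves too, such as the 22 rows that list Snord116l2, with 7 distinct sets of values. The largest set had 50 rows, bracketed by genes of 19 different chromosomes. It stood at 6.15, 5.40 and 5.88 in fibroblasts, 5.97, 5.40 and 6.20 in dedifferentiated and 5.25, 6.69 and 6.22 in ES cells, and the 3 groups overlapped. A set of 6 rows that starts with 10417599 did change. Its values of 3.27, 3.79 and 3.66 in fibroblasts became 7.24, 7.27 and 7.33 in dedifferentiated and 7.50, 8.21 and 8.25 in ES cells, rises of 3.71 and 4.41 (adjusted p = 9.7e-07 and 3.1e-07). One of its rows, 10436826, lay between the neural transcription factor genes Olig2 and Olig1, but the 6 rows were bracketed by 3 different chromosomes. Its values cannot be assigned to 1 place.

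Chromosomes could be given only by bracketing, that is, where the 2 nearest rows with 1 symbol on each side belong to genes of the same chromosome in assembly GRCm38.p6. Tested on rows with 1 symbol, this gave the right chromosome for 18758 of 19263 rows, or 97.4%. It placed 4405 of the 5438 rows lying between. Rows bracketed by the autosomes and X were called higher in dedifferentiated cells than in fibroblasts in 4 of 209 cases (chromosome 6, 1.91%) to 24 of 239 (chromosome 14), and lower in 0.418% to 6.97% of cases. The largest lower share, 20 of 287 rows on chromosome 11, includes the 13 rows before Rnf213. It was below the 8.38% of rows with 1 symbol on chromosome 11 and close to the 6.58% of all rows. On chromosome 14, 10.47% of rows with 1 symbol were higher, slightly above the share of the bracketed rows. In ES cells the same chromosomes had the largest shares, with 24 of 239 rows higher on chromosome 14 and 24 of 287 lower on chromosome 11. Rows with 1 symbol had like shares there, 9.13% higher on chromosome 14 and 8.50% lower on chromosome 11.

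The Y chromosome bracketed only 34 rows. In dedifferentiated cells 10 of these were higher than in fibroblasts (29.4%) and 0 lower, in 7 distinct sets of values. In ES cells 1 was higher (2.94%), and 2 without ES replicate 1 or fibroblast replicate 1. Rows with 1 symbol on the Y chromosome were called more often. Of 30 such rows, 22 were higher in dedifferentiated (73.3%) and 8 in ES cells (26.7%) than in fibroblasts. Between dedifferentiated and ES cells 20 of the 30 were higher (66.7%). The 30 include several rows of 1 gene, Srsy, so these counts are of rows and not of genes. Neither Eif2s3y nor Uty was called between dedifferentiated and ES cells. None of the 34 rows without a symbol was called between dedifferentiated and ES cells. With arrays centred on the rows without a symbol 4 were, and 5 without ES replicate 2, 6 without dedifferentiated replicate 2 and 1 without dedifferentiated replicate 3. The row without a symbol called in both comparisons with fibroblasts, 10608138, lay between Uty and Usp9y, both Y-linked. It stood at 3.70, 3.86 and 3.73 in fibroblasts, 7.94, 7.91 and 7.74 in dedifferentiated and 7.11, 7.20 and 7.42 in ES cells, rises of 4.10 and 3.48 (adjusted p = 7.4e-09 and 1.8e-08). The other 9 rows rose by 1.17 to 1.81 in dedifferentiated cells. An example is row 10608280, in a set of 3 copies with rows of the Y-linked gene Srsy as nearest 1-symbol neighbours on both sides, at 5.75, 5.79 and 5.71 in fibroblasts, 7.22, 6.70 and 7.11 in dedifferentiated and 6.07, 6.20 and 5.82 in ES cells. Uty rose by 2.63 and 1.90 in dedifferentiated and ES cells.

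**Figure D5:**
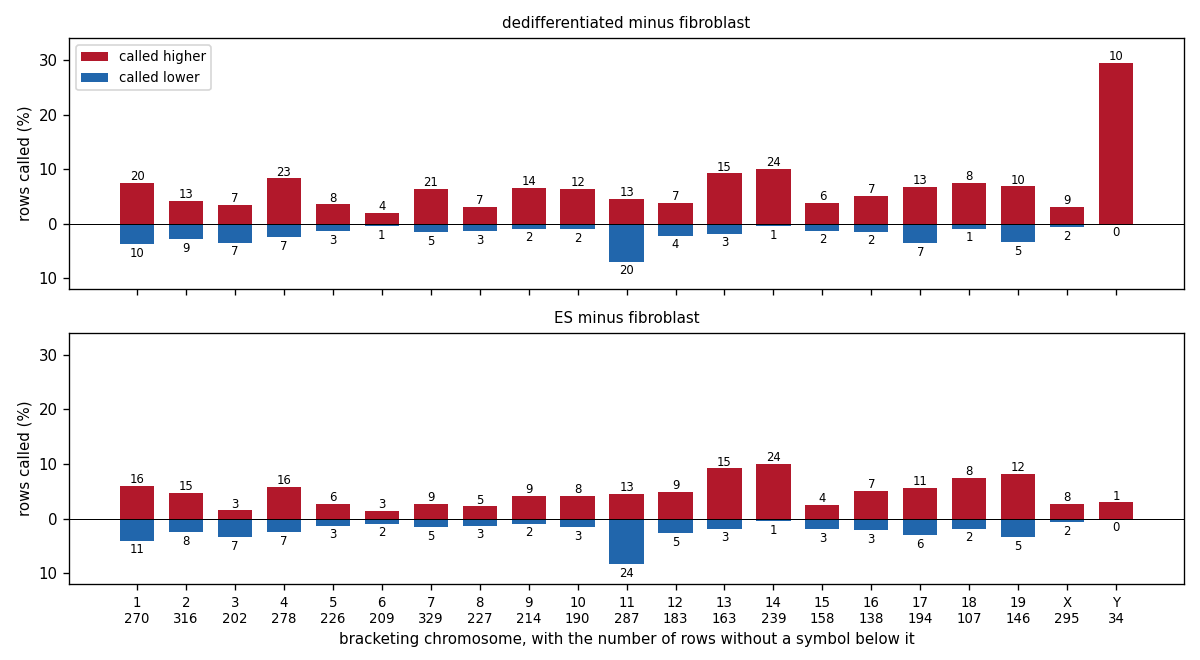
Percentage of rows without a symbol called higher (up) or lower (down) per bracketing chromosome, against fibroblasts, in dedifferentiated cells (top) and ES cells (bottom), with the number of called rows at each bar and the number of rows under each chromosome. The Y chromosome reaches 29.4% in dedifferentiated cells with 10 of 34 rows, where 22 of 30 rows with 1 symbol (73.3%, not drawn) were called higher.

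Across rows, the change of a row without a symbol followed that of its neighbours only weakly. Over 5437 rows lying between, the correlation with the mean change of the 2 rows with 1 symbol on each side was 0.107 for dedifferentiated cells against fibroblasts, 0.121 for ES cells against fibroblasts and 0.083 between dedifferentiated and ES cells. The same measure over rows with 1 symbol gave 0.160, 0.159 and 0.177. Rows are not independent replicates and share the 9 arrays, so these values only describe the table. Of the 413 rows lying between that were higher in dedifferentiated cells, 105 had a nearest neighbour with 1 symbol called the same way, or 25.4%, beside 28.3% of the called rows with 1 symbol. The longest stretch held 90 of the 413, which share its neighbours. Outside it this held for 104 of 323 rows, a share above the 28.3%. In ES cells this held for 105 of 243, or 43.2%, beside 29.7%. Of the 117 rows called between dedifferentiated and ES cells it held for none, beside 40 of 240 higher and 15 of 117 lower rows with 1 symbol. Of these rows without a symbol 86 lie in the longest stretch and share its neighbours, and outside it the count was 0 of 24 higher and 0 of 7 lower rows.

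In a few rows both neighbours had moved the same way. This held for 19 of the rows called higher and 1 called lower in dedifferentiated cells, and for 13 higher and 1 lower in ES cells, each against fibroblasts. The same count over rows with 1 symbol was not made. The 19 include rows 10608280, 10608325 and 10608499, copies of 1 set of values, and rows 10608535 and 10608554. All of these had rows of the Y-linked gene Srsy as nearest 1-symbol neighbours. The 13 include rows 10515702, 10515712, 10515716 and 10515731 of the stretch between Ptprf and Cdc20. The rows described below were chosen after their values were seen. Row 10447395 lay between Epcam, the adhesion molecule of epithelial and ES cells, and the mismatch repair gene Msh6. It went from 5.87, 5.69 and 5.97 in fibroblasts to 9.49, 9.34 and 9.42 in dedifferentiated and 9.34, 9.53 and 9.56 in ES cells, and the latter groups overlapped. Its rise of 3.57 in dedifferentiated cells (adjusted p = 1.3e-08) stood beside 6.23 for Epcam and 2.79 for Msh6. Row 10352306 between Lefty2 and Lefty1, inhibitors of Nodal signalling that ES cells make, rose by 1.29, from 7.54, 7.78 and 7.69 to 8.92, 8.99 and 8.96, where Lefty2 and Lefty1 rose by 3.96 and 3.38. Row 10578399 between Triml1 and Zfp42, the latter also called Rex1 and a marker of ES cells, rose from 3.51, 3.66 and 3.36 to 5.07, 5.24 and 5.61 in dedifferentiated and 5.76, 5.48 and 5.80 in ES cells. The fibroblast arrays were lowest in each of these rows.

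Rows next to hosts of small nucleolar RNAs were among them. Row 10351041, between Gas5, a known host of such RNAs, and Snord47, was at 5.29, 4.75 and 5.12 in fibroblasts, 7.28, 7.04 and 7.19 in dedifferentiated and 6.08, 6.50 and 6.39 in ES cells. It rose by 2.12 in dedifferentiated cells (adjusted p = 6.1e-06), and Gas5 and Snord47 rose by 1.72 and 1.12. Row 10583312, with rows of Taf1d on both sides, rose by 2.77, from 6.45, 6.03 and 6.37 to 9.19, 8.83 and 9.14, beside 1.70 and 2.20 for the Taf1d rows. Row 10515427, between Snord38a and Snord55, rose by 2.20 in ES cells (adjusted p = 4.1e-06), from 5.42, 4.81 and 5.08 to 7.13, 7.49 and 7.29. The only row of this kind that fell, 10534667 between Ap1s1 and Trim56, went from 12.99, 13.13 and 13.18 to 8.88, 8.90 and 8.85 in dedifferentiated and 8.32, 8.45 and 8.30 in ES cells. The fall of 4.22 in dedifferentiated cells (adjusted p = 2e-09) was larger than those of Ap1s1 (-1.26) and Trim56 (-1.77).

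The 91 rows of the trailing run were called more often, and more evenly, than the other rows without a symbol. In dedifferentiated cells 9 were higher (9.89%) and 10 lower (10.99%) than in fibroblasts, beside 8.59% and 6.58% of all rows. In at least 1 comparison 23 rows, or 25.3%, were called, beside 18.8% of all rows and 22.5% of rows with 1 symbol. The run was also brighter than the other rows without a symbol, and the part of level in its calls was not tested. Besides row 10608668, the rises in dedifferentiated cells were led by row 10608640, from 4.93, 5.19 and 5.37 to 8.03, 7.99 and 8.09 (2.87, adjusted p = 8.8e-08), and row 10608695, from 6.21, 6.07 and 5.92 to 8.60, 8.49 and 8.59. Row 10608711 was bright throughout and rose from 9.92, 9.94 and 9.98 in fibroblasts to 11.76, 11.76 and 11.84 in dedifferentiated and 12.24, 12.12 and 12.26 in ES cells. The largest fall was that of row 10608654, from 7.31, 6.32 and 6.42 to 2.48, 2.71 and 2.74 in dedifferentiated and 2.66, 2.88 and 2.70 in ES cells (-4.04, adjusted p = 1.2e-06). Row 10608650 fell by 3.06, from 9.35, 9.29 and 9.43 to 6.32, 6.30 and 6.27. In each of these rows the fibroblast arrays lay apart from the other 6.

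The dedifferentiated arrays were also placed on a line from the fibroblast mean (0) to the ES mean (1), over the 1004 rows without a symbol called between ES cells and fibroblasts. Both differences that enter this slope share the fibroblast arrays, so it is a description with no test. The 3 dedifferentiated arrays stood at 0.872, 0.832 and 0.859, a mean of 0.855 ± 0.021 (SD, n = 3). Over the 626 rows of the leading run the mean was 0.739 ± 0.027 (n = 3). Over the 378 rows outside it the mean was 0.935 ± 0.017 (n = 3), close to the 0.932 ± 0.004 (n = 3) of rows with 1 symbol. ES arrays, each placed against the mean of the other ES arrays, stood at 0.980 ± 0.076 (n = 3) over rows without a symbol and at 0.963 ± 0.135 (n = 3) over the leading run, where arrays scattered most. The rows were chosen by their call between ES cells and fibroblasts, so the ES end of the line was part of the choice, and no order of the stretches is read from these values. Without ES replicate 1 the mean over all rows without a symbol was 0.808.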

How the data were processed

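RNA from 9 samples was hybridised to 1-colour Affymetrix Mouse Gene 1.0 ST arrays, 1 array per sample. The deposited values are log2 signals that the authors made with RMA in Affymetrix Expression Console 1.1, per the labels; no scanner intensities were used here. Groups follow the sample titles, although the fibroblasts' source name mentions ES cells too. Rows without a symbol in the platform annotation were the members. The members and lists were chosen with earlier results of these data known. All 35557 rows of the 9 arrays were fitted without further normalization or filtering in limma 3.58.1 (lmFit, eBayes, 3 groups, R 4.3.3), with Benjamini-Hochberg adjustment over all rows. Calls required adjusted p under 0.05 together with 1 log2 unit or more of change. RMA compresses changes of dim rows. Named rows are, per comparison, the 2 largest called rises and 2 largest called falls whose arrays do not overlap, outside and inside the leading run (1 row for each set of identical rows), the 2 brightest uncalled rows and their nearest neighbours with a symbol; stretches and neighbours were chosen after values were seen. Same-numbered arrays did not deviate together (correlations -0.174 to 0.170), so replicate numbers were not used as pairs. On simulated data of 35557 rows, 56 of 67 changes of 1.5 log2 units were recovered for dedifferentiated cells against fibroblasts. Alternatives covered scaling, filters, array weights, thresholds, identical rows kept once and each array left out.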

Additional observations from a re-analysis of the deposited data

How the results depend on the processing

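Centring on the rows without a symbol, tried on the medians after the data were seen, turned the sign of their median change in all 3 comparisons, to -0.139 for dedifferentiated cells and -0.139 for ES cells against fibroblasts and to 0.012 between dedifferentiated and ES cells. This centring takes out the difference of array medians and moved all rows by -0.21, -0.24 and 0.03 in that order. Each move was larger in size than the median change of 0.07, 0.10 or -0.02 that it met. The turned signs thus follow from the choice of centring. No other result reversed under the alternatives run. Counts for dedifferentiated cells against fibroblasts were 852 higher and 179 lower. The higher count became 483 over rows with a group mean of at least 6, 425 without the leading run, 1499 with a 1.5-fold minimum and 1996 with no minimum. The lower count became 321 centred on rows without a symbol, 119 without the leading run, 462 with a 1.5-fold minimum and 661 with none. For ES cells against fibroblasts, 781 higher became 496 with that centring, 499 above the median level, 399 at means of at least 6, 250 without the leading run, 1546 with a 1.5-fold minimum and 2009 with none. The 223 lower became 381 with that centring, 128 without the leading run, 487 and 728. Between dedifferentiated and ES cells, 130 higher became 62 with identical rows kept once, 22 above the median level, 23 at means of at least 6, 299 with a 1.5-fold minimum and 468 with none. The 69 lower became 23, 19, 7 without the leading run, 199, 337 and, at adjusted p under 0.01, 32.

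With 1 array left out, dedifferentiated cells against fibroblasts had 784 to 911 higher and 174 to 197 lower, ES cells against fibroblasts 690 to 904 and 216 to 261, and dedifferentiated against ES cells 94 to 175 and 49 to 105. Median changes ranged from 0.058 to 0.094, 0.085 to 0.122 and -0.027 to -0.007, and the position from 0.808 to 0.867. Quantile normalization again gave medians of 0.015 and 0.041 for both comparisons with fibroblasts. With 1 neighbour on each side the correlations were 0.0900, 0.111 and 0.0539. The position was 0.954 on the linear scale and 0.939 outside the leading run for changes of at least 2. The cause of these differences was not tested, except that a filter leaves fewer rows. With a replicate block, which the array numbers do not support, the counts were 853 and 178, 763 and 222, and 121 and 55. For the 30 values of named rows, 696 refits gave 20 losses of a call. Without detection calls or probe sequences, dim and copied rows cannot be told from background or from shared probes.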
